A study of Mus musculus with 20 samples.

Results

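Genes of the mitochondrial respiratory chain and ATP synthase were followed in kidney RNA of mice that lack testicular androgen and either received testosterone or did not. Members were all genes whose symbols begin with those of the mitochondrially encoded subunits (mt-Nd, mt-Co, mt-Cytb, mt-Atp) or of the nuclear subunit families Nduf, Sdh, Uqcr, Cox4 to Cox8 and Atp5. This rule found 107 of the 24762 genes counted, 94 in the nuclear and 13 in the mitochondrial genome. The nuclear members comprised 71 widely expressed subunits of complexes I, III, IV and ATP synthase, 4 of complex II, 7 complex I assembly factors (Ndufaf genes) and 7 isoforms found in particular tissues. The last 5 were Atp5s and Atp5sl, whose symbols carry the prefix although they are not ATP synthase subunits, and 3 pseudogenes. A minimum of reads left 101 members in the tests, 90 nuclear and 11 mitochondrial. The 6 others were mt-Atp8, mt-Nd4l, Cox8c and the pseudogenes, with 105, 133 and 2 reads over all libraries for the first 3 and between 5 and 12 for each pseudogene.

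The libraries came from kidneys of orchidectomised males, in 4 groups of 5: wild type C57BL/6J mice (WT) given vehicle or testosterone, and ARLmon/Y mice given vehicle or testosterone, all for 4 days. ARLmon mice carry a mutated androgen receptor whose ligand-binding domains cannot pair, and the males hold no other copy because the gene is X-linked. The labels do not say whether the mutation is present in other tissues as well. Libraries held between 8342000 and 38101526 reads in genes, and are named by the codes of the deposited columns, GC078602 to GC078606 for WT vehicle, GC078607 to GC078611 for WT testosterone, GC078612 to GC078616 for ARLmon testosterone and GC078617 to GC078621 for ARLmon vehicle. Defining kidney transcripts were present in every library: proximal tubule Slc34a1 ran from 3512 to 7225 counts per 1000000 reads (CPM), thick ascending limb Umod from 1519 to 3352 and podocyte Nphs1 from 18.2 to 49.5. Whether the libraries are from different animals is not stated, so p-values measure only the spread between these samples. In RNA of bulk tissue, fewer cells of a type and less RNA per cell cannot be told apart.

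The respiratory chain passes electrons from NADH (complex I) and succinate (complex II) through complex III and cytochrome c to oxygen at complex IV, and ATP synthase uses the proton gradient that this builds. Complexes I, III, IV and ATP synthase are assembled from subunits of both genomes, whereas complex II is wholly nuclear. Proximal tubule cells depend heavily on this pathway to power reabsorption, and the nuclear genes are known targets of the transcription factors NRF1 and GABP, while the mitochondrial genes are transcribed together from long precursor RNAs.

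Before the levels of the mitochondrial genes can be read, their sequence matters. Several of them have a near-perfect copy, of the whole gene or of a part, in the nuclear reference genome. The stretch below is the start of mt-Nd3, a complex I subunit (GRCm38, mitochondrial positions 9459 to 9548, plus strand), beside the annotated pseudogene Gm28438 on chromosome 1 (24613030 to 24613119, minus strand). Capitals mark the run of bases that both share, read 5′ to 3′.

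mt-Nd3: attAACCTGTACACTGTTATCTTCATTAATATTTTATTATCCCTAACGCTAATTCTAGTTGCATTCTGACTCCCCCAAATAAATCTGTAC

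Gm28438: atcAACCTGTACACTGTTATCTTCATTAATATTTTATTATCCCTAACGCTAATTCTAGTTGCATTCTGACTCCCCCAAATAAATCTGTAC

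Beyond the start codon the gene and its copy were identical over 342 aligned bases. Such copies lay side by side on the minus strand of chromosome 1 between 24611535 and 24616197. They matched mt-Co2 over 681 bases, mt-Atp6 over 678, mt-Co3 over 783 and mt-Nd4l over 294, each at 100% identity. For mt-Nd4 the copy covered 63.57% of the gene, and for mt-Co1 the last 31.26%, with the single difference A1066T (the gene's base, its position from 1 at the start of the gene, then the copy's base). Counted in stretches of 50 bases, 51.1% of mt-Co1 also occurred in other annotated genes, 28.7% in its copy Gm29216. None of these chromosome 1 copies was of mt-Nd1, mt-Nd2, mt-Nd5, mt-Nd6, mt-Cytb or mt-Atp8. Other annotated genes of GENCODE M21 held 8.19% of such stretches of mt-Nd2 and 7.61% of those of mt-Nd5.

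The deposited counts split along this line. Over all 20 libraries, mt-Cytb, the mitochondrial subunit of complex III, held 7796252 reads, mt-Co1 of complex IV 6412337 and mt-Nd1 of complex I 4726568. The genes with a full copy held 4132 (mt-Co3), 3780 (mt-Co2), 3539 (mt-Atp6), 1866 (mt-Nd3) and 133 (mt-Nd4l). Their copies were well counted: Gm28437, the copy of mt-Co3, had a median of 2081 CPM over the libraries (1482 to 3598), and Gm10925, that of mt-Atp6, 1987 (1382 to 3225). Gm28661, the copy of mt-Co2, had 1196 (864 to 1936). Counts of mt-Co2, mt-Co3, mt-Atp6, mt-Nd3 and mt-Nd4l are therefore those of reads placed on the mitochondrial sequence only, and reads from a gene and from its copy cannot be told apart where the letters are the same. How reads that fit both places were handled is not given in the sources used here. mt-Atp8, with 105 reads, has no annotated copy, but 233 bases between Gm10925 and Gm28661 carry no annotation, where the mitochondrial genome has 230 bases between mt-Co2 and mt-Atp6.

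Promoters of the nuclear members are shown for 2 widely expressed subunits that hold a motif of NRF1 and for the 2 isoforms with the clearest group differences below. Each is a stretch of 120 bases within the 250 bases before the gene's start in RefSeq on GRCm38.p6. It reads 5′ to 3′ on the gene's strand, with the motif in capitals. Those of Ndufa11 and Cox6b2 end at that start, and those of Cox6a1 and Cox7a1 end further upstream. They lie at chr5:115349056-115349175 (minus strand, Cox6a1), chr17:56717642-56717761 (plus, Ndufa11), chr7:4753095-4753214 (minus, Cox6b2) and chr7:30184024-30184143 (plus, Cox7a1).

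Cox6a1: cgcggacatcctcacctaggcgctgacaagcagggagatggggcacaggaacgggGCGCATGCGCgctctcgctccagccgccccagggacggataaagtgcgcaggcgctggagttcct

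Ndufa11: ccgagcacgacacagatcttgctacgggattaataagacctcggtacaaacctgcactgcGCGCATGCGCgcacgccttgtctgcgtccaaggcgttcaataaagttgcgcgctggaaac

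Cox6b2: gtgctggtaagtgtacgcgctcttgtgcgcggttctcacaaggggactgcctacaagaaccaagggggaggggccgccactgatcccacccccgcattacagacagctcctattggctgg

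Cox7a1: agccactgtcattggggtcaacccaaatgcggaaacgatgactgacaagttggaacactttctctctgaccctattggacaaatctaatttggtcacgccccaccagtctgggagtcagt

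A window of 250 bases before the start was held by 75 of the 94 nuclear members. The 10-letter palindrome in capitals above was sought on either strand. It occurred in 4 of 64 widely expressed subunits, here with complex II included (6.25%), and in 0.78% of 27025 genes. It also occurred before the assembly factor Ndufaf4. The ETS motif CCGGAAG, which GABP recognises, occurred in 11 of the 64 (17.19%) against 7.05% of all genes, and the YY1 motif AANATGGCG in 1 (1.56%) against 1.12%. The 3 isoforms with a window held none of these letters there. For a member with several windows, the one matching its transcript or nearest its start was used, but for all genes the first listed. The shares are therefore not of windows chosen alike. A match is a description of the letters, not of binding.

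Per kilobase of transcript, the median over genes was 412 CPM per kb for nuclear complex IV, 338 for nuclear ATP synthase, 316 for nuclear complex III, 307 for complex II, 192 for complex I accessory and 148 for complex I core subunits. Assembly factors, which help build complex I without staying in it, stood at 17.5, with Ndufaf2 highest at 25.1. The highest nuclear members were Atp5b, the catalytic beta subunit of ATP synthase, at 1570 ± 142 CPM per kb (SD, n = 20), and Cox4i1 of complex IV at 1354 ± 324. Ndufa4, classed with complex I by its Nduf symbol alone, was highest of the complex I accessory class at 858. Highest in their classes were also Uqcrh of nuclear complex III at 645, Sdhb of complex II at 352 and Cox7a1 of the tissue isoforms at 47.6. These levels use 1 length per gene, that of its longest principal transcript. Low levels of genes with a long one, as Atp5g1 (21.4, 4715 bases) and Ndufb2 (11.3, 4371 bases), are uncertain.

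Mitochondrial transcripts without a full copy stood far above these, with mt-Cytb at 22103 CPM per kb, mt-Nd1 at 16062, mt-Co1 at 13412 and mt-Nd5 at 5282. An exception was mt-Nd6, the one protein gene of the light strand, at 481. The genes with full copies ran from 1.64 for mt-Nd4l to 20.3 for mt-Co2, apart from mt-Nd3. Its mean of 27.6 rests on GC078608, at 425 CPM per kb, and was 6.69 over the other 19 libraries. Shared letters touched nuclear members as well. In 11 of the 71 widely expressed subunits at least 25% of all stretches of 50 bases also occurred in another annotated gene, among them Atp5g2 (87.4%), Atp5l (68.5%), Cox7c (53.0%) and Ndufb4 (37.0%, with Ndufb4c). The median level of these 11 was 87.4 CPM per kb, against 265 for the other 60, so their levels are uncertain.

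**Figure D1:**
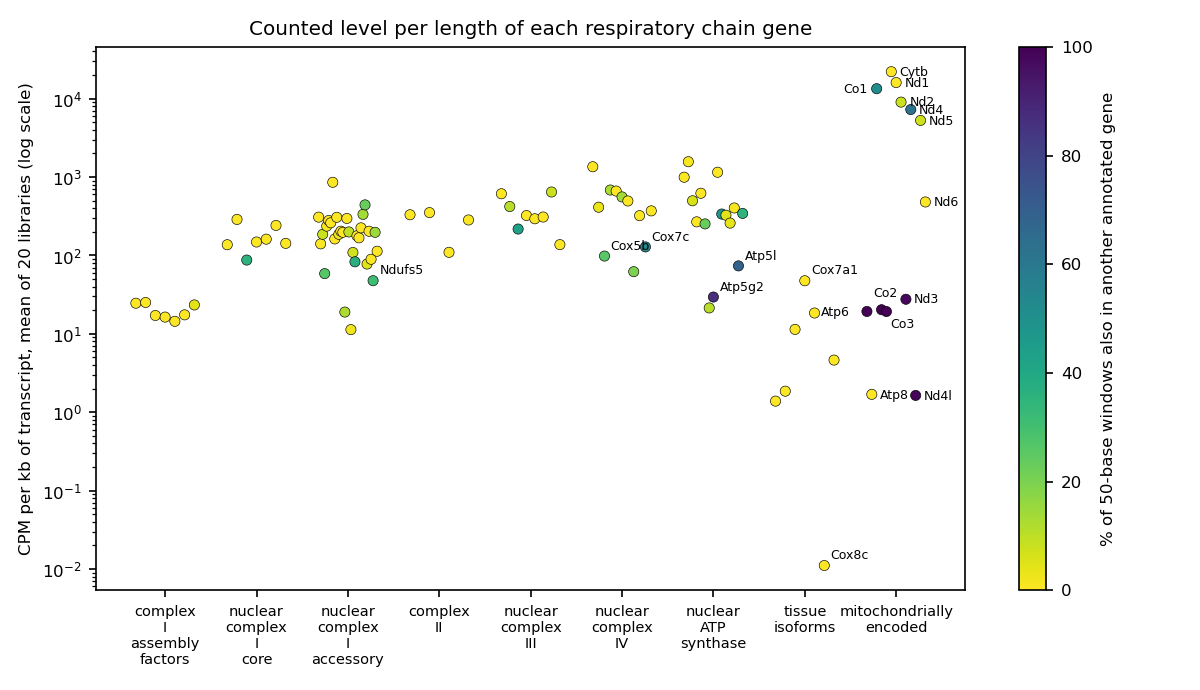
Mean CPM per kb of transcript over 20 libraries for each member, by class, on a log axis, coloured by the percentage of 50-base stretches that also occur in another annotated gene. Mitochondrial genes with a full copy on chromosome 1 lie between 1.64 and 27.6 (the latter, mt-Nd3, is 6.69 without GC078608), and those without one, apart from mt-Nd6 at 481 and mt-Atp8 at 1.69, at 5282 and above.

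Tissue isoforms were minor beside their partners. Per kb, Cox7a1, the heart, muscle and brown fat form of subunit 7a, stood at 9.60% of Cox7a2, and Cox8b at 4.98% of Cox8a. The testis form Cox6b2 stood at 1.72% of Cox6b1, Ndufa4l2 at 0.539% of Ndufa4, the heart and muscle form Cox6a2 at 0.271% of Cox6a1, and the lung form Cox4i2 at 0.102% of Cox4i1.

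Testosterone in WT mice left most of the chain without a call. In edgeR's quasi-likelihood test with Benjamini-Hochberg adjustment over 15549 genes, 3 members were higher and 1 was lower than with vehicle, where 15.7% of all genes tested were called (9.36% higher and 6.36% lower). Those higher were the assembly factor Ndufaf4, mt-Atp6 and mt-Nd3, and the one lower was Cox6b2. The median log2 difference over members was -0.05, against -0.03 over all genes, and 0.10 without GC078604, so its sign turned on that library; no widely expressed nuclear subunit of any complex was called. In simulated counts for this comparison (15549 genes), 50% of changes of 1.5-fold were called and 89% of those of 2-fold.

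Other cell markers moved in the same comparison: all 6 podocyte markers and 3 of 5 of smooth muscle and renin cells were lower with testosterone, and of 10 proximal tubule markers 2 were higher and 1 lower. Their part in the values below was not tested.

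Cox6b2 (chromosome 7, 4751792 to 4753094, minus strand) encodes the testis form of the complex IV subunit that joins its dimer. It stood at 4.42, 5.74, 8.03, 4.69 and 10.2 CPM in the WT vehicle libraries and at 3.40, 2.66, 2.39, 2.29 and 3.27 with testosterone. Every testosterone library was thus below every vehicle library. The log2 difference was -1.22 ± 0.26 (SE; adjusted p = 0.00237), and the call held with each library left out (adjusted p up to 0.0114).

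Ndufaf4 (chromosome 4, 24898083 to 24905001, plus strand), needed early in complex I assembly, was at 49.02, 55.3, 52.6, 55.4 and 64.2 CPM with vehicle and at 74.2, 80.3, 66.2, 68.2 and 76.7 with testosterone. The groups did not overlap, and the log2 difference was 0.40 ± 0.12 (SE; adjusted p = 0.0225). The call was lost without GC078602 (adjusted p = 0.0534) or GC078608 (0.0551), with scaling by library size alone (0.116) and in the deposited log2 values (0.148).

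Calls of the 2 mitochondrial genes rest on few reads and on genes with a copy. mt-Atp6, a proton-channel subunit of ATP synthase (mitochondrial positions 7927 to 8607, overlapping mt-Atp8 and mt-Co3), was at 7.41, 6.89, 5.62, 7.67 and 17.8 CPM with vehicle and at 28.1, 19.5, 25.3, 21.04 and 11.7 with testosterone. One library of each group lay within the range of the other, and the log2 difference was 1.26 ± 0.26 (SE; adjusted p = 0.00168). With the reads of Gm10925 added, the level was 2314 ± 255 CPM (SD, n = 5) with vehicle and 2129 ± 657 with testosterone, and the difference was -0.12 (adjusted p = 0.672).

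mt-Nd3 stood at 148 CPM in the testosterone library GC078608 and between 1.13 and 4.24 in the other 19 libraries, so that this library held 1224 of its 1866 reads. Its log2 difference of 4.36 ± 0.98 (SE; adjusted p = 0.00353) fell to 0.75 without that library (adjusted p = 0.119). Added to its copy, it was -0.02 (adjusted p = 0.963).

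Beyond these 4 calls, the extremes of the classes did not pass the test. For complex I, Ndufs1, which holds iron-sulphur clusters, was at a log2 difference of 0.26 (adjusted p = 0.0740) and Ndufs7, which carries the last cluster before ubiquinone, at -0.48 (0.122). Among accessory subunits, Ndufb4 was at 0.35 (adjusted p = 0.0970) and Ndufa5 at -0.27 (0.438). The 4 subunits of complex II lay between 0.04 for Sdhc, a membrane anchor, and 0.11 for Sdhd, the other anchor, with the flavoprotein Sdha at 0.04 and the iron-sulphur protein Sdhb at 0.06.

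For complex III the extremes were the Rieske protein Uqcrfs1 (0.10) and Uqcr11 (-0.28), for complex IV Cox7a2 (0.04) and Cox5b (-0.38), and for ATP synthase Atp5b (0.19) and Atp5e (-0.17). The mitochondrial genes that were not called lay between mt-Cytb at -0.02 and mt-Co2 at 0.77 (adjusted p = 0.0810), with mt-Nd4 at -0.00, mt-Co1 at 0.04 and mt-Nd1 at 0.11. None of these passed the test, which does not show that the groups were alike.

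**Figure D2:**
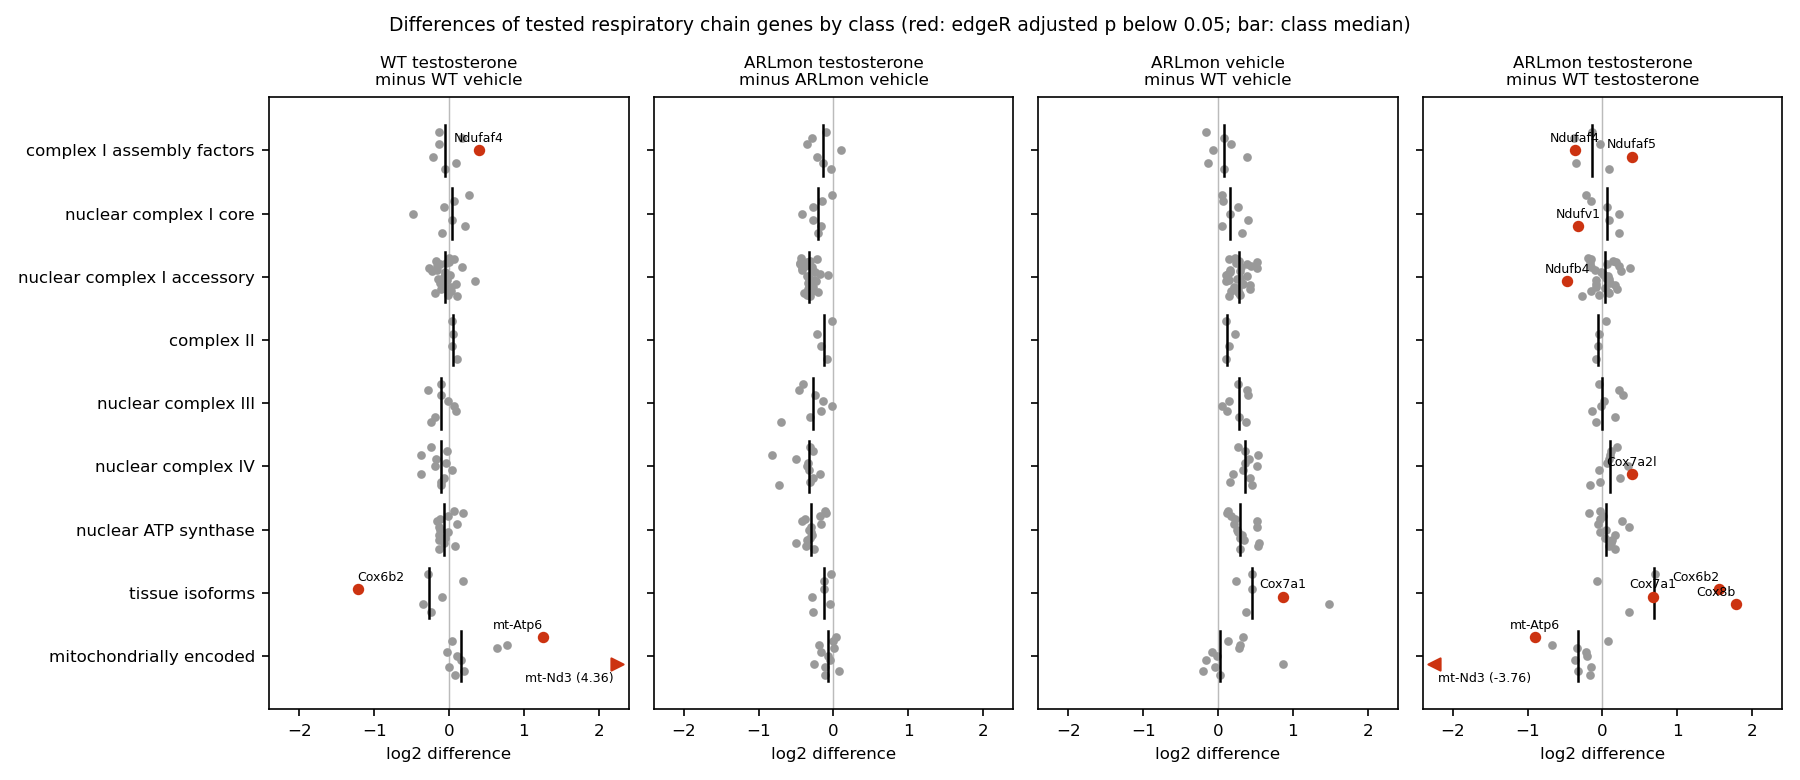
Log2 difference of each tested member by class in the 4 comparisons, with called members in red and class medians as bars. mt-Nd3 lies beyond the axis, at 4.36 and -3.76, and is drawn as a triangle at the edge; nearly all nuclear members lie below 0 in ARLmon testosterone minus vehicle and above 0 in ARLmon vehicle minus WT vehicle.

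In ARLmon mice testosterone gave no call in the chain. edgeR called 0 of 101 members, where 0.00% of all genes were called; DESeq2 and limma-voom also called 0. Without adjustment, 25 of the 101 members and 813 of 15549 genes had a p below 0.05, and the smallest adjusted p of a member was 0.774. All the same, the differences had 1 sign: 88 of 90 nuclear members were below 0, including all 71 widely expressed subunits, where 48.8% of all genes tested were. The median was -0.33 for complex IV, -0.32 for complex I accessory, -0.30 for ATP synthase, -0.28 for complex III, -0.20 for complex I core and -0.13 for complex II, against 0.01 over all genes. Of the 11 mitochondrial genes 8 were below 0, with a median of -0.08. The members share libraries, so their number is no replicate count. Without GC078618 of ARLmon vehicle, the median over all members moved from -0.27 to -0.17. Other gene families lay on the same side: 83 of 83 cytosolic ribosomal protein genes (median -0.28) and 74 of 78 mitochondrial ones (median -0.21) were below 0.

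Cox5b, which binds zinc at the matrix side of complex IV, lay far below its class median. Of its stretches of 50 bases 25.9% also occur in Gm11273, so its level is uncertain. It was at 84.0, 149, 135, 88.5 and 153 CPM in the ARLmon vehicle libraries and at 73.2, 77.2, 65.5, 44.7 and 85.5 with testosterone. The groups touched only at their edges, and the log2 difference was -0.82 ± 0.25 (SE; adjusted p = 0.774). Sdha, by contrast, ran from 932 to 1063 CPM with vehicle and from 874 to 1062 with testosterone, at a log2 difference of -0.01 ± 0.08 (SE).

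Between genotypes without testosterone, 1 member was called, where 4.37% of all genes were (1.99% higher, 2.38% lower). Cox7a1 (chromosome 7, 30184144 to 30186078, plus strand) was at 13.6, 11.3, 22.5, 11.6 and 11.8 CPM in WT vehicle and at 23.8, 34.8, 26.9, 18.6 and 25.9 in ARLmon vehicle. Every ARLmon library was above 4 of the 5 WT libraries, and GC078604 of WT lay above 1 ARLmon library. The log2 difference was 0.87 ± 0.19 (SE; adjusted p = 0.00973), and the call held with each library left out in turn. It was lost when the 2 groups were fitted alone (adjusted p = 0.0658).

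The rest of the nuclear chain lay on the same side without a call: 86 of 90 nuclear members were above 0, where 50.8% of all genes were. Class medians were 0.36 for complex IV, 0.30 for ATP synthase, 0.28 each for complex III and complex I accessory, 0.16 for complex I core and 0.13 for complex II. The mitochondrial genes had 6 of 11 above 0 and a median of 0.02. This comparison and the previous one share the ARLmon vehicle libraries, so the values are not independent. Of other cell markers, 3 of 7 of intercalated cells, 2 of 6 of the distal convoluted tubule and 1 of 6 of podocytes were higher in ARLmon here, and their part was not tested.

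Single libraries moved this comparison both ways. Without GC078618 of ARLmon vehicle the median over all members was 0.15, with 1 call, against 0.26 with all libraries and 0.41 without GC078604 of WT vehicle. The number of calls turned on GC078604. Without GC078604, 37 members were higher in ARLmon and 0 lower, where 7.75% of all genes were called (3.84% higher). By class, these were 14 complex I accessory (Ndufa4 among them), 3 complex I core, 9 ATP synthase and 8 complex IV genes. The others were 2 of complex III and Cox7a1, with none of complex II or of the mitochondrial genome. Cox5b had a log2 difference of 0.84 (adjusted p = 0.0255), Ndufa5 0.78 (0.0126), Atp5e 0.77 (0.0122) and Cox8a 0.73 (0.0381). With both GC078604 and GC078618 of ARLmon vehicle left out, 19 members were called, all higher, where 5.72% of all genes were.

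With testosterone in both genotypes, 10 members differed, 5 higher and 5 lower in ARLmon, where 31.1% of all genes were called (15.6% higher, 15.5% lower). Higher were the isoforms Cox6b2, Cox7a1 and Cox8b, the supercomplex factor Cox7a2l and the assembly factor Ndufaf5. Lower were Ndufb4 and Ndufv1 of complex I, Ndufaf4, mt-Atp6 and mt-Nd3. The median over members was 0.01, against 0.04 over all genes, so the members lay about as all genes did.

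Cox6b2 was at 11.7, 7.97, 8.23, 4.71 and 8.82 CPM in ARLmon testosterone, with no overlap with the WT testosterone libraries, which ended at 3.40. The log2 difference was 1.56 ± 0.26 (SE; adjusted p = 0.000109). In ARLmon vehicle it was at 6.31, 9.41, 9.68, 8.03 and 11.3 CPM, a range that overlaps that with testosterone, so the low values were those of the WT testosterone libraries.

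Cox7a1 was at 11.3, 17.3, 12.7, 13.2 and 12.3 CPM in WT testosterone and at 20.9, 19.5, 18.9, 17.8 and 29.1 in ARLmon testosterone. These groups did not overlap, and the log2 difference was 0.67 ± 0.20 (SE; adjusted p = 0.0141). Without GC078616 the adjusted p was 0.0512.

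Cox8b (chromosome 7, 140898945 to 140900446, minus strand), the muscle and brown fat form of subunit 8, was at 1.36, 7.25, 1.99, 1.55 and 2.18 CPM in WT testosterone and at 8.72, 3.98, 11.97, 11.6 and 12.5 in ARLmon testosterone. The high WT library was GC078608 and the low ARLmon library GC078613, so the groups overlapped. The log2 difference was 1.78 ± 0.61 (SE; adjusted p = 0.0316). The call was lost in 7 of the 20 fits that left out 1 library, with adjusted p up to 0.0843. It was also lost in limma-voom (adjusted p = 0.0586).

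Fat cell transcripts moved with Cox8b. The sum of 7 other fat markers (Ucp1, Cidea, Elovl3, Adipoq, Plin1, Cidec and Lep) ran from 27.7 to 188 CPM in WT testosterone, from 81.4 to 222 in ARLmon testosterone, from 31.1 to 227 in WT vehicle and from 48.2 to 281 in ARLmon vehicle. In WT testosterone the highest library of the sum was GC078608, and in ARLmon testosterone the lowest was GC078613, as for Cox8b. Of the list of 8, Cox8b included, 2 were higher in ARLmon testosterone than in WT testosterone, the other being Adipoq, none of the 8 was at 0 in all libraries of a group, and Ucp1 ran from 3.40 to 140 CPM. Sums of skeletal muscle markers ran from 2.14 to 2.78 CPM in WT vehicle, from 1.58 to 2.88 in WT testosterone, from 2.73 to 4.79 in ARLmon vehicle and from 2.55 to 4.89 in ARLmon testosterone. Myh1 was called higher in ARLmon in both comparisons of genotypes, and Ckm was at 0 in all libraries of both vehicle groups. For Cox7a1, the library with the highest fat sum was also highest in WT testosterone (GC078608), but not in the other groups. GC078606, with the highest sum of WT vehicle at 227, was at 11.8 CPM for Cox7a1. GC078615, with the highest sum of ARLmon testosterone at 222, was lowest of its group for Cox7a1, at 17.8. The part of these cells in the values of Cox8b and Cox7a1 was not tested.

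Of the widely expressed subunits, Ndufb4 (chromosome 16, 37647170 to 37654453, minus strand), an accessory subunit of the membrane arm, was at 107, 95.3, 91.5, 100 and 85.3 CPM in WT testosterone and at 73.3, 63.3, 70.0, 59.9 and 79.7 in ARLmon testosterone. All WT libraries were above all ARLmon libraries, and the log2 difference was -0.47 ± 0.14 (SE; adjusted p = 0.0131). With vehicle its levels were 66.7, 63.4, 107, 65.4 and 75.3 CPM in WT and 73.5, 104, 78.9, 65.4 and 85.5 in ARLmon, where the groups overlapped.

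Ndufv1 (chromosome 19, 4007384 to 4012806, minus strand), the subunit that takes electrons from NADH, was at 473, 465, 453, 439 and 422 CPM in WT testosterone and at 383, 345, 357, 309 and 404 in ARLmon testosterone. The groups did not overlap, at a log2 difference of -0.33 ± 0.12 (SE; adjusted p = 0.0362). The call was lost in 7 of 20 fits that left out 1 library, and in edgeR without a filter (adjusted p = 0.0580). Ndufaf4 was at 44.5, 46.8, 52.6, 70.3 and 68.7 CPM in ARLmon testosterone, where 2 libraries lay within the WT range. Its log2 difference was -0.37 ± 0.12 (SE; adjusted p = 0.0222), and the call was lost in 4 of the 20 fits, with adjusted p up to 0.0701.

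Cox7a2l (chromosome 17, 83501918 to 83517330, minus strand), which links complexes III and IV, was at 56.0, 55.9, 54.1, 51.6 and 44.7 CPM in WT testosterone and at 77.6, 67.3, 61.7, 57.5 and 79.7 in ARLmon testosterone. The groups did not overlap, at a log2 difference of 0.39 ± 0.14 (SE; adjusted p = 0.0392). This call was lost in 8 of 20 fits with 1 library left out, and in edgeR with median-ratio factors (adjusted p = 0.0519). Ndufaf5 (chromosome 2, 140170649 to 140203689, plus strand), a methyltransferase-like assembly factor, was at 12.4, 11.7, 14.3, 15.4 and 13.2 CPM in WT testosterone and at 19.7, 16.9, 15.9, 14.7 and 21.2 in ARLmon testosterone, at 0.39 ± 0.12 (SE; adjusted p = 0.0210). This call was lost in 4 of 20 fits, with adjusted p up to 0.0675. One ARLmon library lay within the WT range.

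mt-Atp6 was lower in ARLmon by its own reads, at 9.34, 12.2, 11.4, 11.8 and 11.7 CPM in ARLmon testosterone (log2 difference -0.90 ± 0.26, SE; adjusted p = 0.0115). Summed with its copy it was at -0.28 (adjusted p = 0.198). mt-Nd3 (-3.76 ± 0.95, SE; adjusted p = 0.00477) was at -0.15 (adjusted p = 0.750) without GC078608.

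Calls in this comparison depended on how libraries were scaled. When libraries were scaled by their size alone, the median of all genes moved from 0.04 to 0.28, that of the members from 0.01 to 0.26, and 29 members were called higher and 2 lower (30.7% of the members, where 44.4% of all genes were called in either direction). Relative to all genes the members' median was therefore near 0 in both. Ndufaf4, Ndufb4 and Ndufv1 then lost their calls, and Cox6b2, Cox7a1 and Cox8b kept theirs.

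Other cell markers differed between the same groups. All 6 podocyte markers and all 5 of smooth muscle and renin cells were higher in ARLmon testosterone than in WT testosterone, as were 5 of 7 for intercalated cells and 4 of 6 for the distal convoluted tubule. Proximal tubule markers were divided, with 2 of 10 higher and 2 lower. The part of these cells in the members' differences was not tested.

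**Figure D3:**
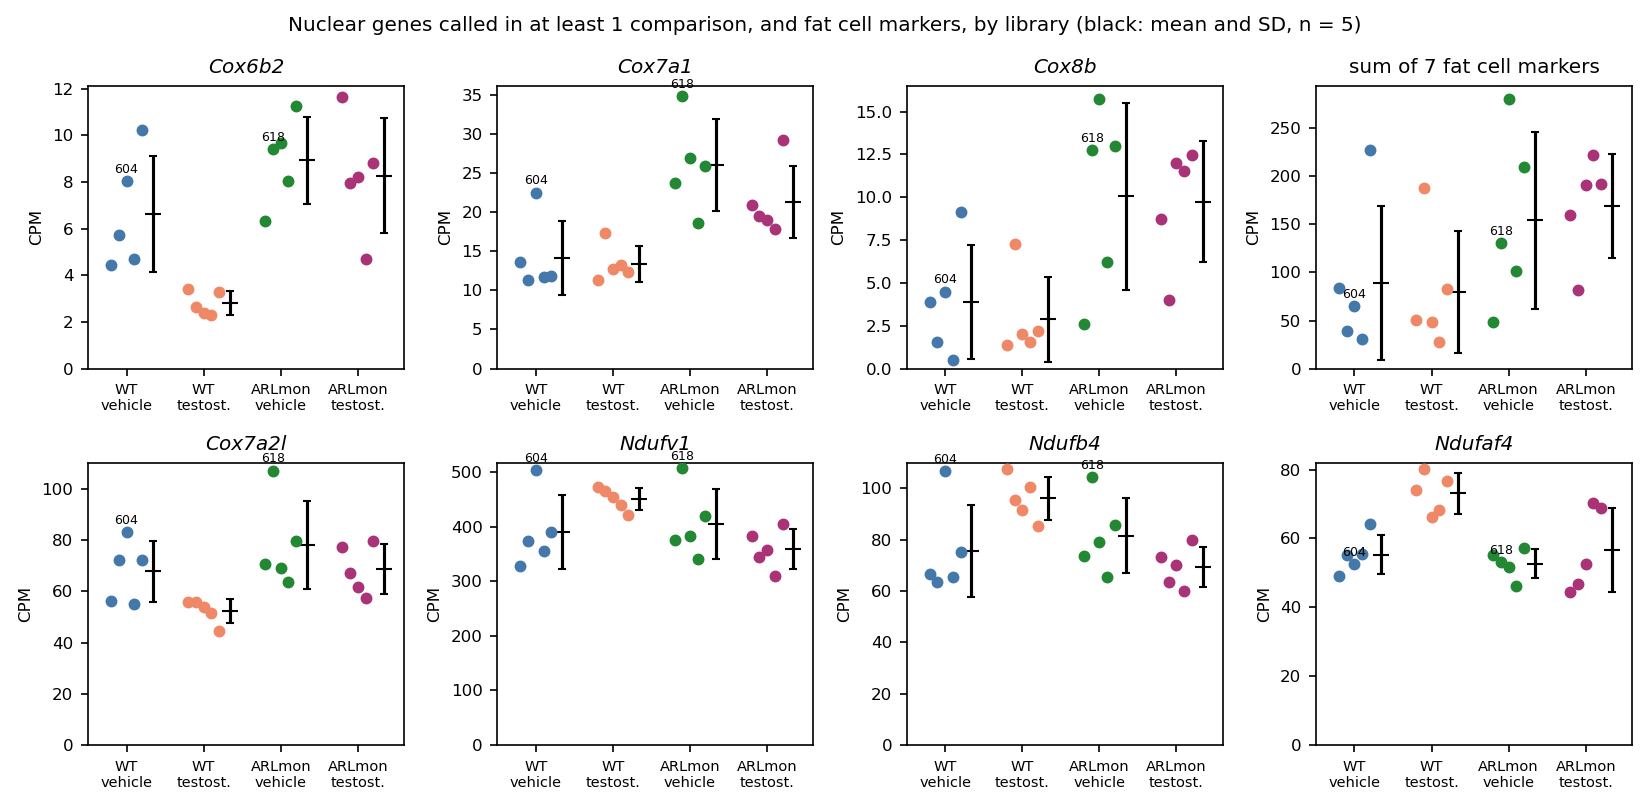
CPM in each library for Cox6b2, Cox7a1, Cox8b, the sum of 7 fat cell markers, Cox7a2l, Ndufv1, Ndufb4 and Ndufaf4, with the mean and SD of each group (n = 5). Cox6b2 lies lowest in WT testosterone, between 2.29 and 3.40; Cox8b and the fat markers vary together between libraries.

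The difference between the testosterone effects of the genotypes was itself tested. edgeR called 0 of 101 members, where 4.77% of all genes were called (1.42% higher, 3.34% lower). DESeq2 called 2 and limma-voom 1. Without adjustment 10 members had a p below 0.05. mt-Atp6 was at a log2 difference of -1.23 and mt-Nd3 at -4.63 (adjusted p = 0.0569 for both), Cox6b2 at 1.10 (0.0825) and Ndufb4 at -0.58 (0.102). For Cox6b2, the fall with testosterone in WT was thus not shown to differ from the -0.12 of ARLmon. In all, 82 of 90 nuclear and 11 of 11 mitochondrial members were below 0, with a median of -0.22 against 0.02 over all genes. That median was -0.13 without GC078618 and -0.37 without GC078604. Without GC078604, 4 members were called, all complex I: Ndufb4 (adjusted p = 0.00653), Ndufb6 (0.0266), Ndufv1 (0.0475) and Ndufa1 (0.0482), where 6.19% of all genes were.

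Libraries of a group differed among themselves. The mean log2 CPM of the 71 widely expressed subunits was 7.56 ± 0.32 in WT vehicle, 7.53 ± 0.06 in WT testosterone, 7.87 ± 0.28 in ARLmon vehicle and 7.56 ± 0.21 in ARLmon testosterone (SD, n = 5). Lowest and highest library differed 1.73-fold in WT vehicle (GC078605 and GC078604), 1.64-fold in ARLmon vehicle (GC078620 and GC078618), 1.48-fold in ARLmon testosterone (GC078615 and GC078616) and 1.10-fold in WT testosterone. For these 71 subunits the WT testosterone libraries were thus the most alike. That did not hold for mt-Cytb, whose SD was 0.18 in WT testosterone and 0.12 in WT vehicle. It was 0.19 in ARLmon vehicle and 0.20 in ARLmon testosterone.

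By complex, the range in WT vehicle was 1.90-fold for complex IV, 1.79-fold for complex I accessory, 1.72-fold for complex III, 1.65-fold for ATP synthase and 1.29-fold for complex II. GC078604 and GC078618 were highest for each of these in their groups. In both libraries 70 of the 71 subunits were above the mean of their group, by a median of 0.58 and 0.42 on the log2 scale. As a set, the mitochondrial genes without a full copy went the other way, with 2 and 1 of 7 above and medians of -0.34 and -0.29. Those above were mt-Cytb (0.05) and mt-Nd4 (0.07) in GC078604 and mt-Nd6 (0.63) in GC078618. The chromosome 1 copies were divided. Gm28437 (3598 and 2921 CPM), Gm28661, Gm28438 and Gm29216 were highest of their groups in both libraries, and Gm10222 and Gm28439 were lowest. The libraries thus did not divide the transcripts simply by genome of origin.

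**Figure D4:**
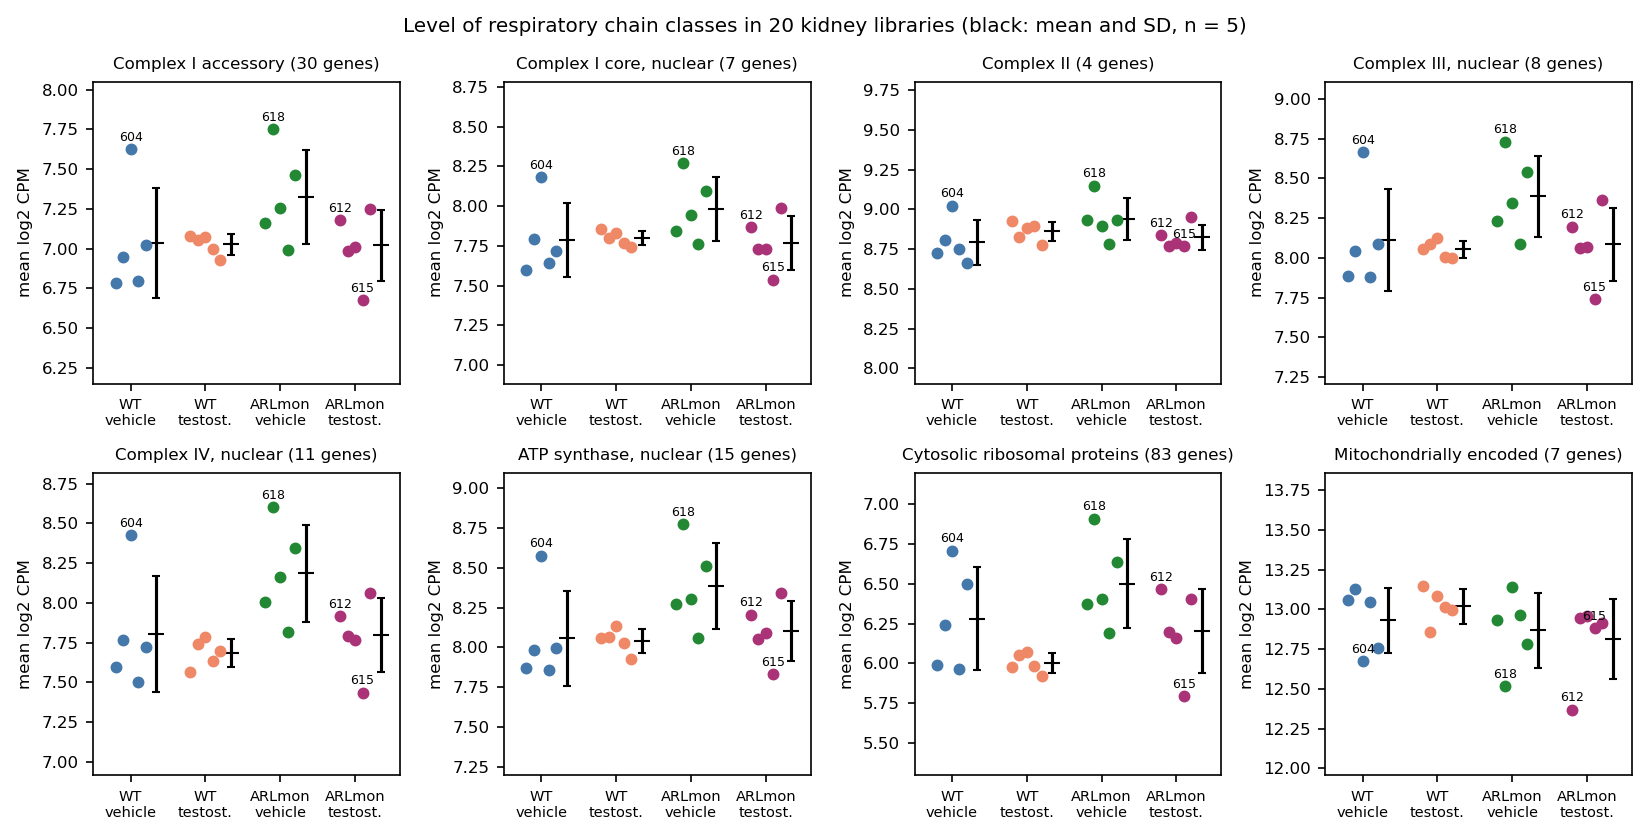
Mean log2 CPM of 8 gene sets in each library, by group, with mean and SD (n = 5) and the libraries GC078604, GC078612, GC078615 and GC078618 labelled. Nuclear sets are highest in GC078604 and GC078618, where the mitochondrial genes without a full copy are lowest in their groups, and GC078612 is lowest of all for these, at 12.37.

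Reads in mitochondrial genes also set apart GC078612 of ARLmon testosterone. There the 13 genes held 6.70% of all reads, against 9.54% to 9.77% in the other libraries of its group. GC078618 held 6.65%, and GC078604 7.75%. mt-Nd5 varied most among the tested mitochondrial genes without a full copy, at 10402, 3649, 10662, 10422 and 7492 CPM in ARLmon vehicle and 4418, 10025, 9381, 11607 and 9460 in ARLmon testosterone. Its low libraries were GC078618 and GC078612. mt-Cytb, at 27472, 21515, 29961, 23496 and 24384 CPM in ARLmon vehicle, varied less.

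Among nuclear members the SD within groups, in log2 units, was largest for Cox8b (1.09), then Uqcrq of complex III (0.47), Cox5b (0.45), Cox8a (0.42) and Ndufa2 (0.42). It was smallest for Uqcrc2 of the complex III core (0.08), Sdha (0.08), Atp5a1 (0.09) and Atp5b (0.11). Uqcrq was at 143, 196, 378, 134 and 210 CPM in WT vehicle, with GC078604 the high one, and at 127, 196, 208, 158 and 209 in WT testosterone. In ARLmon it was at 182, 363, 280, 198 and 353 with vehicle and at 186, 175, 155, 96.4 and 233 with testosterone, where GC078615 was low. Subunits of 1 complex thus differed in their spread between libraries.

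Across 75 nuclear genes (the 71 widely expressed subunits and the 4 of complex II), the SD within groups had a Spearman's rho of -0.48 with transcript length. The deviation in GC078604 had one of -0.43 with length. Deviations in GC078604 and GC078618 had a rho of 0.75. These are descriptions across genes, which share the libraries, with no test.

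The same held outside the chain. In GC078604, members with transcripts under 500 bases deviated by a median of 0.75 (5 genes) and other genes of that length by 0.57 (44 genes). From 800 to under 1500 bases the medians were 0.52 (27 members) and 0.35 (1516 other genes). At 3000 bases and over they were 0.25 (5) and -0.22 (6709). Highest of these 5 members were Atp5g1 (4715 bases, 0.64) and Ndufb2 (4371 bases, 0.62). Each gene has 1 length here, that of its longest principal transcript in GENCODE. That form need not be the one expressed in kidney, so comparisons by length are uncertain. Cytosolic ribosomal protein genes deviated by a median of 0.45 in GC078604 and 0.41 in GC078618, mitochondrial ribosomal protein genes by 0.40 and 0.35, and TCA cycle genes by 0.07 and 0.08. The part of transcript length or RNA quality in the members' differences was not tested.

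**Figure D5:**
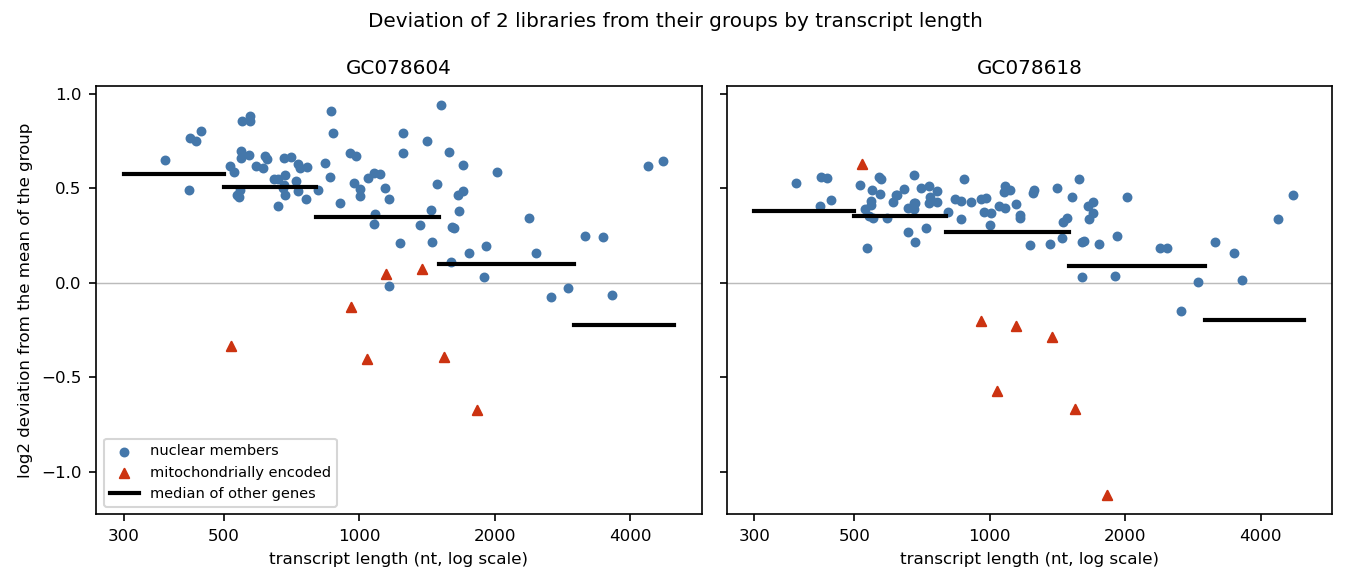
Deviation of each member from the mean of its group in GC078604 and GC078618 (log2) against transcript length, with nuclear members as dots, mitochondrial genes as triangles and medians of other genes in 5 length bins as black bars. Short nuclear members lie highest, at a median of 0.75 in GC078604 under 500 bases, and the medians of other genes fall from 0.57 to -0.22.

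Genes that serve the chain without matching the rule were counted as well. Of 42 tested assembly factors and subunits outside the rule, 4 were higher with testosterone in WT (9.52%, where 9.36% of all genes were) and 0 lower (6.36% of all genes). Acad9, a complex I assembly factor and acyl-CoA dehydrogenase, was at 66.6, 70.2, 64.7, 73.5 and 54.3 CPM with vehicle and at 137, 135, 133, 157 and 151 with testosterone. Its groups did not overlap, and the log2 difference was 1.11 ± 0.11 (SE; adjusted p = 2.27e-07).

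Cycs, the cytochrome c that carries electrons between complexes III and IV, was at 46.2, 43.6, 65.5, 55.0 and 56.4 CPM with vehicle and at 121, 101, 101, 104 and 102 with testosterone (0.99 ± 0.11, SE; adjusted p = 2.17e-06). The others were Cox15, which makes haem A for complex IV (0.67, adjusted p = 0.00124), and Cox11, a copper chaperone of complex IV (0.34, adjusted p = 0.0334), whose call was lost in 4 of 20 fits with 1 library left out. In ARLmon, Acad9 lay between 51.6 and 79.5 CPM and Cycs between 46.8 and 65.6 in all 10 libraries, and testosterone gave 0 calls in this list.

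For these 2 genes the testosterone effects themselves differed between genotypes, by -1.20 for Cycs (adjusted p = 5.67e-05) and -1.09 for Acad9 (adjusted p = 9.75e-05). Both calls held with each library left out. Between genotypes with testosterone, 9 of the 42 were lower in ARLmon (21.4%, against 15.5% of all genes). They were led by Acad9 (-1.11), Cycs (-1.02), Cox15 (-0.74) and Sdhaf1 (-0.70), an assembly factor of complex II. Only 1, Uqcc2, was higher (0.56), which is 2.38%, against 15.6% of all genes. With vehicle 0 of 42 were called.

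Of 20 TCA cycle genes, 5 were higher with testosterone in WT (where 9.36% of all genes were), led by Pdhx (0.46, adjusted p = 0.000192), a pyruvate dehydrogenase component, and Pcx (0.40, adjusted p = 0.00852), pyruvate carboxylase, and 6 were lower in ARLmon than WT with testosterone (30.0%, against 15.5% of all genes). With vehicle, Pcx alone was lower in ARLmon (-0.39, adjusted p = 0.0287), a call lost in 5 of 20 fits with 1 library left out. For Pdhx alone of this list the testosterone effects differed between genotypes, by -0.40 (adjusted p = 0.0310), a call lost in 8 of those fits. Of 37 regulators and genes of mitochondrial DNA expression, Trmt10c, a subunit of mitochondrial RNase P, was the 1 gene higher with testosterone in WT (where 9.36% of all genes were; log2 difference 0.34, adjusted p = 0.0146). Between genotypes with testosterone 6 were lower in ARLmon (16.2%, near the 15.5% of all genes), among them Tfam, which packages mitochondrial DNA (-0.34), Tefm (-0.39) and Trmt10c (-0.38). All 3 lost the call when libraries were scaled by size alone, as did Trmt10c, Pcx, Vdac1 and Cox11 in WT.

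Among 11 uncoupling proteins and carriers, 2 were lower with testosterone in WT (18.2%, against 6.36% of all genes) and 1 higher (9.09%, against 9.36%). Lower were the ADP/ATP carrier Slc25a4 (-0.30, adjusted p = 0.0472), a call lost in 13 of 20 fits with 1 library left out, and Slc25a27 (-0.47, adjusted p = 0.0366), lost in 5. The outer membrane channel Vdac1 was higher (0.31, adjusted p = 0.0139; 0.0507 at most with 1 library left out). Slc25a4 was higher in ARLmon than WT with vehicle (0.40, adjusted p = 0.0231; lost in 6 of those fits) and with testosterone (0.52, adjusted p = 0.000516). With testosterone 3 of the 11 were higher in ARLmon (27.3%, against 15.6% of all genes) and 1 lower (9.09%, against 15.5%). Besides Slc25a4, Slc25a27 (0.63, adjusted p = 0.00289) and Ucp2 (0.55, adjusted p = 0.0261; lost in 4 of those fits) were higher, and Vdac1 was lower (-0.34, adjusted p = 0.00381). For Slc25a27 the testosterone effects differed between genotypes, by 0.77 (adjusted p = 0.0314), a call lost in 9 of those fits. Of 78 mitochondrial ribosomal protein genes, 4 were higher with testosterone in WT (5.13%, below the 9.36% of all genes) and 11 lower in ARLmon than WT with testosterone (14.1%, near the 15.5% of all genes). In ARLmon mice testosterone gave 0 calls in any of these lists, as in all genes.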

How the data were processed

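Kidney mRNA libraries were prepared with a stranded Illumina kit and sequenced on a HiSeq4000, per the labels. The build is mm10, and the submitters' processing notes list the tools HTSeq 2.7.14, SAMtools 1.5, HISAT2, FastQC 0.11.7 and DESeq2. Annotation, multi-mapping rule and strand setting of the counting are not given in the sources used here. The authors deposited raw counts per gene in tables of 2 groups each, which were joined into 24762 genes by 20 libraries, with 12045 values in 1713 genes absent from a table set to 0. Their deposited log2 table, whose normalization is not stated, holds 91 of the 107 members, none of them mitochondrially encoded, and served as an alternative.

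The model was edgeR 4.0.16 under R 4.3.3 (quasi-likelihood test, TMM scaling, the filterByExpr filter, 4 group means, 16 residual degrees of freedom; 15549 genes tested), called at a Benjamini-Hochberg adjusted p below 0.05. DESeq2 1.42.0 and limma 3.58.1 were alternatives, as were other scalings and filters and libraries left out. CPM values use TMM factors; log2 CPM adds a prior count of 2. The test was tested on simulated data. Transcript lengths, coordinates and copies come from GENCODE M21 on GRCm38 and promoters from RefSeq on GRCm38.p6. The length of a gene is that of its longest transcript marked as principal, where 1 is marked. The members and lists were chosen with earlier results of these data known. Named genes are, by a rule, the called members, the extremes of each class in the WT testosterone comparison, complex II, the isoform sets, the highest level per length of each class, the most variable members and up to 4 called genes of each other list; further members were named after their values were seen. Figures were drawn with matplotlib 3.10.9.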

Additional observations from a re-analysis of the deposited data

Results flagged for a closer look

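Within each group of 5 libraries, the highest or lowest was set against Dixon's critical value of 0.71 for its gap to the nearest library over the group's range. Of 80 groups of values tested, 12 passed, where chance flags about 1 in 20 of independent groups. These groups share libraries, and the single genes among them were included because they had been called. The 12 can therefore not be set against that rate. In WT vehicle GC078604 accounted for 4, where the mean log2 CPM was 7.62 for complex I accessory subunits (median of the other 4 libraries 6.87), 8.67 for nuclear complex III (7.97), 8.43 for nuclear complex IV (7.66) and 8.58 for nuclear ATP synthase (7.93). Cox7a1 stood out in the same library, at a log2 CPM of 4.50 (3.57).

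GC078608 of WT testosterone stood out for the tissue isoforms at 1.91 (1.31), for Cox8b at 2.88 (0.92) and for mt-Nd3 at 7.21 (1.42). GC078612 of ARLmon testosterone was low for the mitochondrial genes without a full copy at 12.37 (12.93), for the share of reads in mitochondrial genes at 6.70% (9.65%) and for mt-Atp6 at 3.24 (3.57). GC078606 of WT vehicle was high for mt-Atp6 at 4.16 (2.86).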

How the results depend on the processing

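Counts of called members under median-ratio factors, scaling without mitochondrial genes, no filter and a minimum of 1 CPM in 5 libraries stayed within 1.5 times of those reported. With library size only, 7 members were called in WT testosterone against vehicle (2 higher, 5 lower), 11 between genotypes with vehicle, 31 with testosterone and 1 in the interaction. The median of all genes then lay at -0.18 in WT and 0.28 between genotypes with testosterone. DESeq2 called 4 with vehicle between genotypes and 2 in the interaction, limma-voom 2 and 1. With only the 2 groups compared, 0 were called between genotypes with vehicle and 18 with testosterone. Without GC078604 and GC078618 the counts were 7 in WT, 19 and 18 between genotypes with vehicle and testosterone, and 3 in the interaction. From the deposited log2 values 4 and 21 were called between genotypes with vehicle and testosterone (the latter 21 higher, 0 lower), and 3 in WT (0 higher, 3 lower), where Ndufaf4 was not called. With reads of copies added, chosen after seeing the data, 2 were called in WT, and mt-Atp6 (-0.12) and mt-Nd3 (-0.016) changed sign there. Fastkd2, lower in ARLmon with testosterone, was at 0.0072 with library size only. The causes were not tested.

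With each library left out in turn, members called in WT ranged from 2 (without GC078608) to 6 (without GC078604 or GC078606). The range was 0 to 0 in ARLmon, 1 to 37 between genotypes with vehicle and 0 to 4 in the interaction. Between genotypes with testosterone it was 6 (without GC078607 or GC078616) to 13 (without GC078604). No paired analysis was possible because the deposited columns carry no replicate number; the replicate block was not run. Depth limits mt-Nd4l, mt-Atp8 and Cox8c, which were too rare to test.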
